A study of Homo sapiens with 8 samples.

Results

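The Rab family was taken as all protein-coding genes of the deposited count table whose symbol is RAB, a number and at most a letter from A to F, a rule that uses names only and gave 63 members among 58206 gene identifiers. Rab GTPases are small GTP-binding proteins that mark and run the membrane compartments of the cell. A Rab is loaded with GTP on its own membrane by an exchange factor (GEF), recruits effectors such as tethers and motors, and is switched off by a GTPase-activating protein (GAP). Prenyl groups anchor it in the membrane, and GDI proteins carry the inactive form through the cytosol. In hepatocyte-derived cells Rabs serve the secretion of plasma proteins as well as the uptake, recycling and degradation of receptors, which is the part of the cell that the series title, on Wnt and integrin endocytosis, concerns.

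RNA sequencing of mRNA libraries was done on Alexander1 cells, an established human hepatocellular carcinoma line whose own Axin1 lacks the stretch that binds the kinase GSK3, so that canonical Wnt signalling is permanently on. The 4 parental libraries carry the label wt (Axin1 -), and the other 4 the label Axin1+, for a stable derivative given full-length Axin1 from an Addgene plasmid by retroviral transfer, hygromycin B and selection of clones. The labels list that protocol for all 8 samples, the parental ones included. How many clones the Axin1+ libraries represent, and whether the libraries of a label come from separate cultures, is not given in the sources used here. P-values therefore measure the spread between these libraries, and a difference between the labels and a difference between clones cannot be told apart.

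AXIN1, the gene the design set out to add, checks the labels. It stood at 55.3, 52.8, 47.4 and 54.2 CPM in parental replicates 1 to 4 and at 47.6, 48.0, 48.2 and 37.7 CPM in Axin1+ replicates 1 to 4, where CPM is a count divided by the scaled library total, in its usual unit. Its mRNA was therefore not higher under the Axin1+ label (log2 fold change -0.21, SE 0.12, edgeR adjusted p = 0.267), and every direction below rests on the labels alone. Totals ran from 11232951 to 15263761 counts in the parental libraries and from 12372436 to 26400782 in those labelled Axin1+, so that 3 counts equal between 0.108 and 0.267 CPM. All 10 hepatocyte markers checked were detected, with a summed level of 23600 to 27500 CPM in the parental and 18200 to 21800 CPM in the Axin1+ libraries. Of these, FGB (log2 fold change 2.05) and TTR (1.76) rose and TF (-0.94) and SERPINA1 (-0.64), the most abundant, fell. Axin1+ replicate 1 stood apart in some of them. Its ALB was 13.8 CPM, against 444.9, 680.9 and 598.5 CPM in Axin1+ replicates 2 to 4 and 46.7 to 207.7 CPM in the parental libraries. Its AFP was 310.6 CPM, against 146.5, 118.2 and 79.7 CPM, and its APOA1 144.8 CPM, against 552.9, 295.7 and 196.5 CPM. TTR in this library was 4.81 CPM, within the parental range of 1.42 to 5.35 CPM, against 21.2, 13.8 and 10.4 CPM. FGB there was 2257 CPM, above the parental 688.4 to 915.8 CPM but below the 3452, 3488 and 3503 CPM of Axin1+ replicates 2 to 4. APOH was 105.9 CPM, against 172.2, 201.2 and 165.3 CPM. In Axin1+ replicate 1 APOB, TF and SERPINA1 lay within the range of the other Axin1+ libraries. The 4 epithelial markers summed to 4150 to 5140 CPM in the parental and 3460 to 5090 CPM in the Axin1+ libraries. CDH1 rose (log2 fold change 0.50, edgeR adjusted p = 0.0181), and KRT8 and KRT18 did not pass (-0.09 and -0.10). EPCAM was at 0.358 CPM or less in every library. The 7 fibroblast markers summed to 2.71 to 3.29 CPM in the parental and 1.38 to 4.81 CPM in the Axin1+ libraries, and COL1A1 and PDGFRB held most of this. PDGFRB was lower under the Axin1+ label in every library (at most 0.431 CPM, against 0.801 to 2.29 CPM). The 4 leukocyte markers summed to at most 0.826 CPM, and CD3E was at 0. The summed level of 4 endothelial markers moved with the label, from 4.58 to 6.77 CPM up to 34.1 to 58.5 CPM, through PECAM1. VWF, CDH5 and KDR were each at 0.248 CPM or less in every library. The part of these cell types in the Rab results was not tested, and in bulk RNA fewer cells of a type and less RNA per cell cannot be told apart.

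Reads were found for 60 of the 63 Rab genes, and 49 were expressed highly enough to be tested. RAB3C, RAB39B and RAB44 had no count in any library, which allows at most the level of 3 counts given above. The other 11 untested members (RAB6C, RAB7B, RAB9B, RAB17, RAB19, RAB25, RAB33A, RAB38, RAB40A, RAB41 and RAB42) were detected at low counts. Among them are RAB25, an epithelial relative of RAB11A, and RAB38, a Rab of melanosomes, which reached 2 and 9 counts at most. RAB17, a Rab of polarised epithelia, was the highest of these, with 18, 3, 4 and 6 counts in parental replicates 1 to 4 and 102, 3, 6 and 8 counts in Axin1+ replicates 1 to 4. Only Axin1+ replicate 1 thus held more than 18 counts of it.

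Per length of transcript (RPKM, which is CPM per kilobase of merged exons), the Rab pool was dominated by a few members. RAB7A, which governs the maturation and fusion of late endosomes with lysosomes, was the highest in the parental libraries at 120.5 RPKM, followed by RAB10 (94.6), RAB1B (87.6), RAB32 (86.4) and RAB1A (65.6). RAB10 serves delivery of vesicles to the plasma membrane, RAB1A and RAB1B transport from the endoplasmic reticulum to the Golgi, and RAB32 lysosome-related organelles and mitochondria. These 5 genes made up 48.3% of the summed Rab level in the parental libraries and 43.3% under the Axin1+ label. The same 5 members led under both labels, but with the Axin1+ label RAB7A (91.3 RPKM) and RAB32 (90.3 RPKM) were about level. In the parental libraries 23 members reached 10 RPKM and 22 stayed below 1 RPKM. Order among close neighbours in this list is not resolved: RAB1B ranged over parental libraries from 79.1 to 102 RPKM and RAB32 from 57.6 to 107 RPKM, so their ranges overlap.

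**Figure D1:**
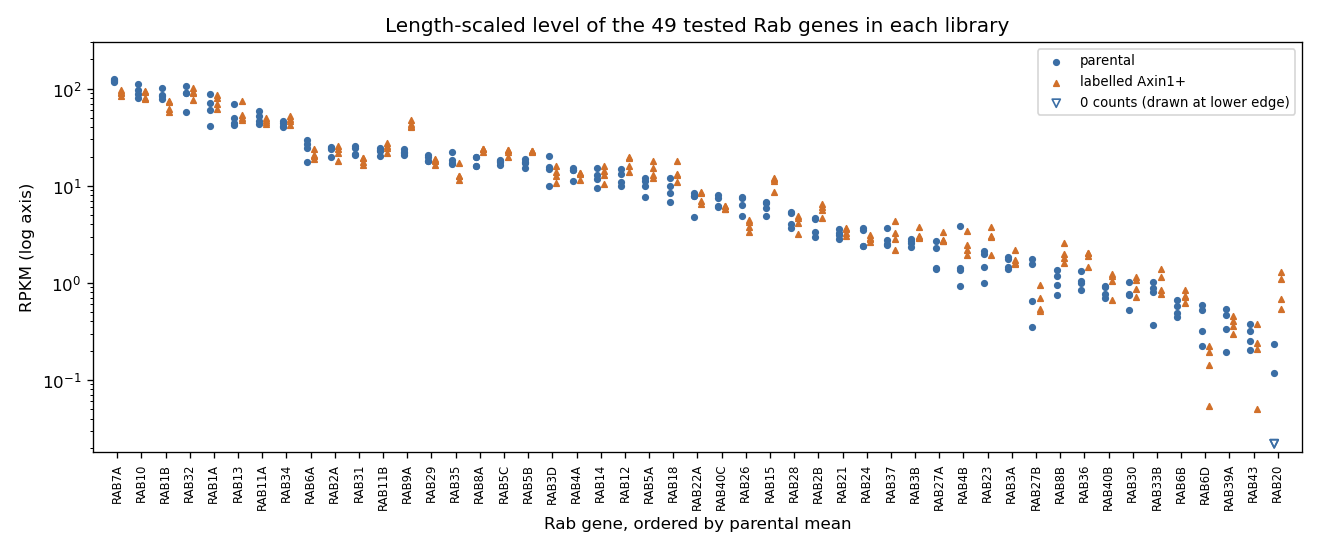
Level of each of the 49 tested Rab genes in every library, in RPKM on a log axis, with genes ordered by their parental mean. Circles are the 4 parental libraries and triangles the 4 libraries labelled Axin1+, and open triangles at the lower edge mark libraries with 0 counts of RAB20. RAB7A leads in the parental libraries at 120.5 RPKM, and at the low end RAB20 is the gene whose labels lie farthest apart.

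The comparison asked which Rab mRNAs differed between the labels. With the threshold at 0.05 for p-values from the quasi-likelihood test of edgeR, adjusted over all 14289 genes tested, 11 of the 49 tested Rab genes differed. That is 22.4% of them, against 19.2% of all genes and 20.5% of protein-coding genes, so the share is close to the background and is no result about the family. Of these, 8 rose under the Axin1+ label (RAB5B, RAB8A, RAB8B, RAB9A, RAB15, RAB20, RAB23 and RAB36), where 10.4% of all genes rose, and 3 fell (RAB7A, RAB26 and RAB35), where 8.77% of all genes fell. Scaling by total counts only split the calls 9 to 1. RAB20 alone combined a call with a log2 fold change of 1 or more in size, which 7.66% of all genes did. It entered the test through its Axin1+ counts only, which fixed its direction in advance. An unadjusted p under 0.05 was found for 20 Rab genes and for 33.5% of all genes. The median log2 fold change of the tested Rab genes was 0.14 (all genes 0.003), with 30 positive and 19 negative values. Their median absolute log2 fold change was 0.33, against 0.31 for all genes. Parental and Axin1+ values were fully separate in 14 Rab genes (28.6%), against 23.9% of all genes. Besides 9 of the 11 called genes these were RAB1B, RAB3B, RAB5A, RAB5C and RAB31, which did not pass the threshold.

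The Wald test of DESeq2 called 19 Rab genes and 3504 of all genes, and added RAB1B, RAB2B, RAB5A, RAB5C, RAB6D, RAB12, RAB18 and RAB31 to the 11. The number of calls also moved with single libraries: 3 Rab genes were called without parental replicate 2 or without Axin1+ replicate 4, 5 without Axin1+ replicate 3, and 14 without parental replicate 1 or without Axin1+ replicate 1. RAB9A, RAB15 and RAB20 kept their call in each of these analyses. Parental replicate 1 stood apart from the rest. It held the lowest of the 8 values in 18 of the 49 tested Rab genes, RAB1A, RAB4A, RAB5A and RAB6A among them. Without it the log2 fold change of RAB9A was 1.00, that of RAB15 was 0.76 and that of RAB20 was 4.61, while the calls for RAB8A and RAB23 were lost (edgeR adjusted p = 0.0561 and 0.0531). RAB4B and RAB27A passed the threshold only in its absence.

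**Figure D2:**
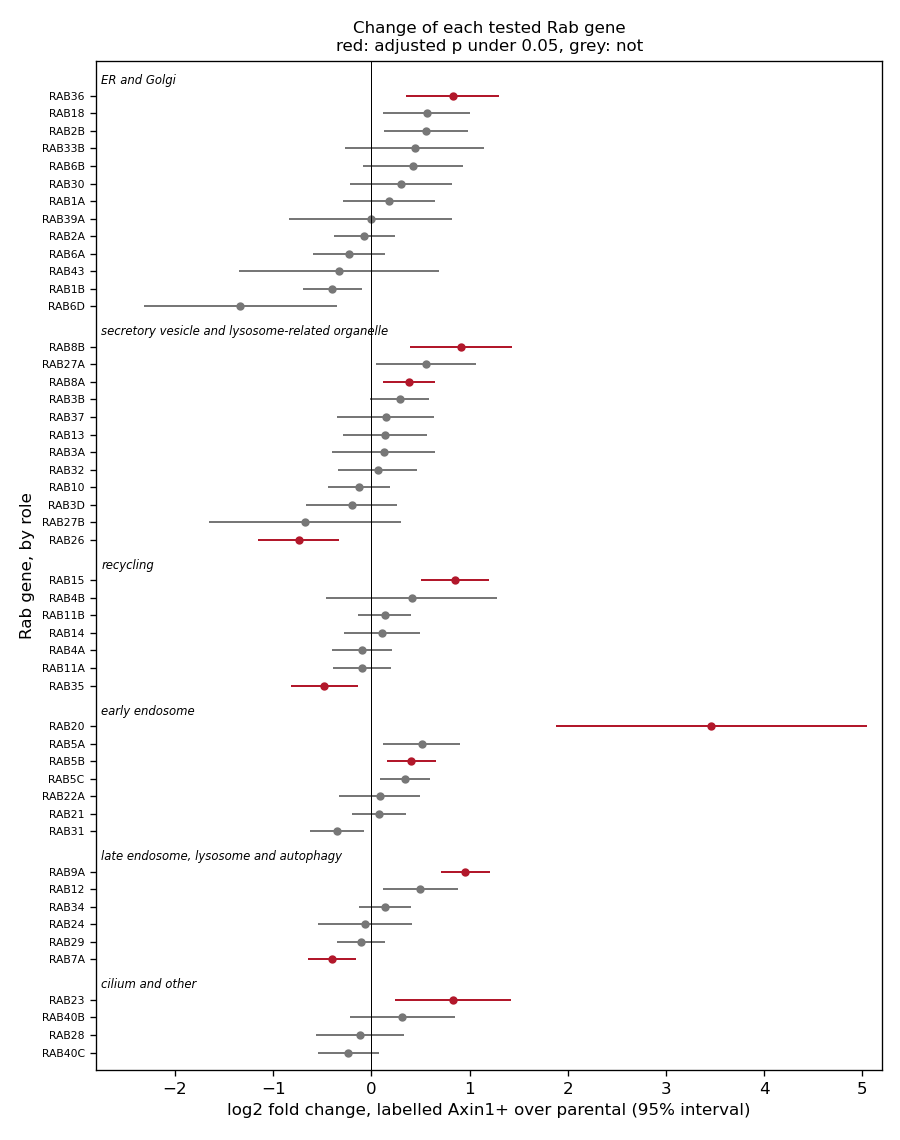
Log2 fold change (labelled Axin1+ over parental) with its 95% interval for the 49 tested Rab genes, grouped by the compartment each is known for. Red marks the 11 genes with an adjusted p under 0.05. RAB20 lies farthest to the right at 3.46, and the intervals of most grey genes span 0.

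Late endosomes and lysosomes held the most abundant Rab that fell and the Rab with the smallest p-value. RAB9A (ENSG00000123595, chromosome X, 13689125 to 13710506 in GRCh38), which returns cargo from late endosomes to the Golgi, stood at 51.1, 44.5, 47.5 and 45.6 CPM in parental replicates 1 to 4 and at 100.6, 88.0, 85.9 and 92.0 CPM in Axin1+ replicates 1 to 4. Every Axin1+ value lay far above every parental value. The means were 47.2 CPM ± 2.90 and 91.6 CPM ± 6.49 (SD, n = 4 each), and the log2 fold change was 0.96 (SE 0.11, 95% interval 0.72 to 1.2, edgeR adjusted p = 0.000309). RAB9A kept its call in all 16 alternative analyses, from 0.91 to 1.05 on the log2 scale. Its chromosomal neighbours moved the same way: the 40 nearest tested genes had a median log2 fold change of 0.71, which leaves 0.25 for RAB9A after subtraction.

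RAB7A (ENSG00000075785, chromosome 3, 128726122 to 128814796) stood at 324, 331, 340 and 315 CPM in parental replicates 1 to 4 and at 261.5, 229, 248 and 254 CPM in Axin1+ replicates 1 to 4. The labels did not overlap, and the spread within each was small. RAB7A fell by 0.40 on the log2 scale (SE 0.11, 95% interval -0.64 to -0.16, edgeR adjusted p = 0.0263). Its neighbours had a median of -0.33, which leaves -0.07. The call was lost without any of parental replicates 2 and 3 or Axin1+ replicates 2, 3 and 4, with total counts only and with no expression filter (edgeR adjusted p up to 0.134 over the alternatives, log2 fold change -0.43 to -0.32). Of the other members of this group, RAB12, a Rab of lysosomal degradation of receptors, had 0.50 on the log2 scale (edgeR adjusted p = 0.0623) and passed without parental replicate 3 (0.61) or Axin1+ replicate 1 (0.59). RAB24, RAB29 and RAB34 lay between -0.11 and 0.14 and did not pass.

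RAB9A and RAB7A act on the same compartment and moved in opposite directions, so their start regions are shown side by side. Each sequence runs from 250 bases before to 50 bases after the annotated start, on the plus strand, from RefSeq on GRCh38.p14 (RAB9A chrX:13688878-13689177, RAB7A chr3:128725933-128726232). Capitals mark the GC box letters GGGCGG on either strand.
RAB9A: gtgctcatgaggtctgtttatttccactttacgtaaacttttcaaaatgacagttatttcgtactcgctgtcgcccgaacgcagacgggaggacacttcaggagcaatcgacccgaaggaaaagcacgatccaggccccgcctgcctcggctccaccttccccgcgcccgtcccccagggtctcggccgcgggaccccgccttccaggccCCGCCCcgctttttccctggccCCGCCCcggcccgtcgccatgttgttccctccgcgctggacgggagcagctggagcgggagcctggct
RAB7A: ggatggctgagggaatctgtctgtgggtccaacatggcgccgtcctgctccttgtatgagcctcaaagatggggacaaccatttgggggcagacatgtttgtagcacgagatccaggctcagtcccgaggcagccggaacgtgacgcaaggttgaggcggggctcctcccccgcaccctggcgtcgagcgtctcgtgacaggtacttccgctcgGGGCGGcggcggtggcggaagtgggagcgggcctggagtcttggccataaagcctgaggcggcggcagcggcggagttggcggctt
Both windows were rich in G and C (64.3% in RAB9A, 65.0% in RAB7A), and GGGCGG occurred 2 times in RAB9A and 1 time in RAB7A. By symbol, 50 of the 63 Rab genes matched the RefSeq table, with 71 windows. GGGCGG, searched on both strands, was present in 52 of these windows (73.2%) against 45% of the 35116 windows of all genes, noncoding genes included. The letters CTTTGAT and CTTTGTT, forms of the site read by the TCF/LEF factors of the Wnt pathway, were each present in 2 of the 71 Rab windows (2.82%), against 2.62% and 5.2% of all windows. CTTTGAT was found in windows of RAB3B and RAB27B and CTTTGTT in those of RAB17 and RAB18, none of which passed the threshold. In the 9 windows of the 7 called genes that matched, neither was present, which says only that these letters are not in these 300 bases.

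Of the 7 early endosome Rabs, RAB5B and RAB20 rose, and 6 of the 7 log2 fold changes were positive (median 0.34, against 0.003 for all genes). The 2 calls are 28.6% of the group, against 19.2% of all genes, and 50.2% of all genes had a positive value. RAB20 entered the test through its Axin1+ counts only, which fixed its direction in advance. Its call and its sign therefore say nothing about the group. RAB5B (ENSG00000111540, chromosome 12, 55973913 to 55996683), one of the Rabs that drive fusion of incoming endocytic vesicles, stood at 123, 113, 117 and 99.5 CPM in parental replicates 1 to 4 and at 149, 151, 148 and 151 CPM in Axin1+ replicates 1 to 4. The Axin1+ values were nearly equal and all exceeded the highest parental value. RAB5B rose by 0.41 on the log2 scale (SE 0.11, 95% interval 0.17 to 0.64, edgeR adjusted p = 0.0249), while the median of its neighbours was -0.01. Its call was lost with no expression filter and without any of parental replicates 2, 3 and 4 or Axin1+ replicates 2, 3 and 4 (edgeR adjusted p up to 0.0788 over the alternatives, log2 fold change 0.35 to 0.49).

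The relatives RAB5A and RAB5C act at the same step. RAB5A stood at 28.8, 42.3, 45.0 and 37.6 CPM in the parental and 45.1, 57.3, 48.7 and 68.2 CPM in the Axin1+ replicates 1 to 4. RAB5C stood at 48.1, 45.6, 49.4 and 51.1 CPM and at 64.9, 54.7, 65.0 and 61.6 CPM. Neither showed overlap between the labels, although the gap for RAB5A was narrow, and neither passed the threshold. Their log2 fold changes were 0.51 (SE 0.17, edgeR adjusted p = 0.0632) and 0.34 (SE 0.11, edgeR adjusted p = 0.0524). RAB5C lay among genes with a median of 0.40, above its own value. Leaving out Axin1+ replicate 1 brought RAB5A, and leaving out Axin1+ replicate 2 brought RAB5C, past the threshold.

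RAB20 (ENSG00000139832, chromosome 13, 110523066 to 110561733), a Rab of endosomes and phagosomes, was nearly absent from the parental libraries, at 4, 0, 2 and 0 counts. In the Axin1+ libraries it stood at 1.04, 0.826, 1.97 and 1.68 CPM, above every parental value (0.356 CPM or less). The pooled counts of 6 and 122 give a ratio of 12.1, with an exact 95% interval of 5.41 to 33.7 that covers counting error only. The fitted log2 value was 3.46 (SE 0.72, edgeR adjusted p = 0.0082) and depends on the prior count at such levels. RAB20 passed the expression filter through the Axin1+ libraries only. Without parental replicate 1, which held 4 of the 6 parental counts, the fitted value was 4.61. RAB31, which moves cargo between the Golgi and endosomes, went the other way, from 115, 138, 143 and 119 CPM to 91.5, 109, 98.2 and 108 CPM (log2 fold change -0.35, edgeR adjusted p = 0.0672), without overlap and without passing. Without parental replicate 1 it passed (-0.40, edgeR adjusted p = 0.0323). RAB21 and RAB22A had log2 fold changes of 0.08 and 0.09, and RAB22A turned to -0.07 without parental replicate 4. As a share of the summed Rab RPKM, the 7 early endosome genes took 8.56%, 8.34%, 8.44% and 8.02% in the parental and 8.97%, 9.81%, 9.21% and 9.91% in the Axin1+ replicates 1 to 4. Every Axin1+ share exceeded every parental share, a description for which no test was run. Such shares were computed for every compartment group, and in all the others the labels overlapped. A share also depends on the level of the other Rab genes in the sum.

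**Figure D3:**
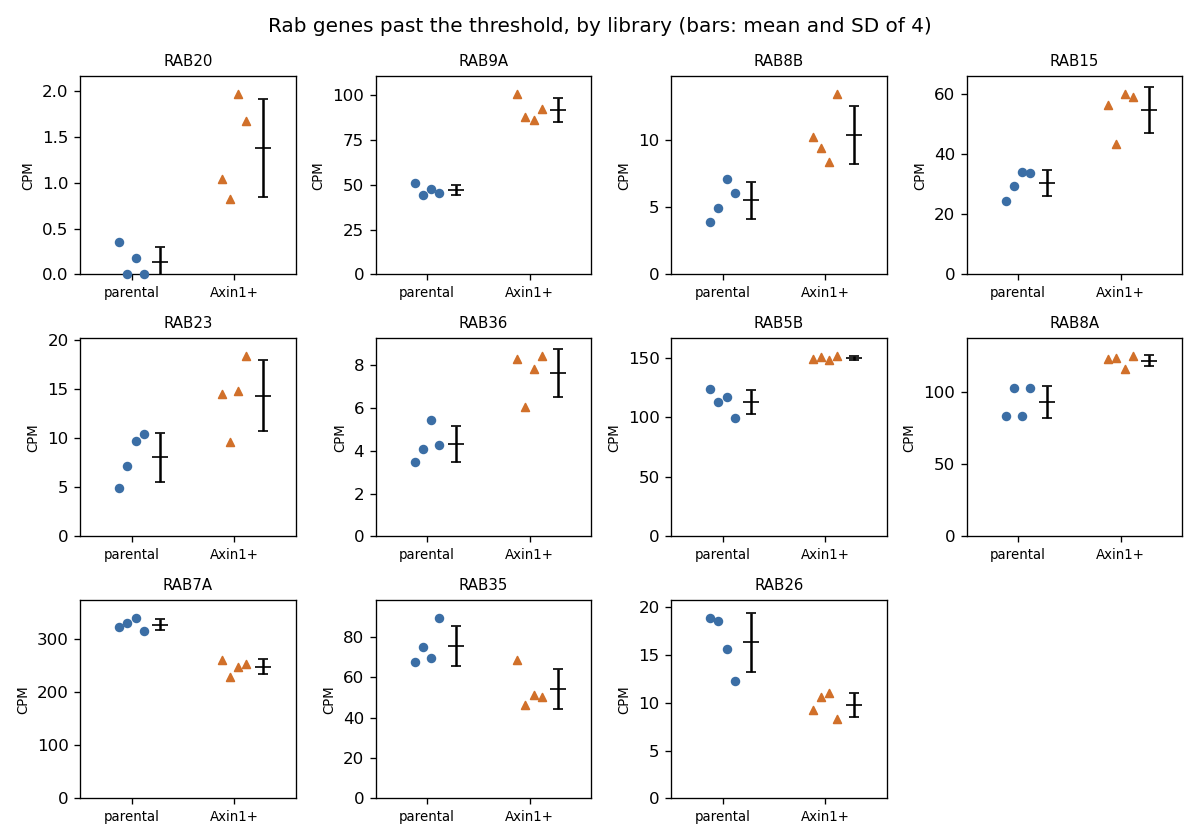
CPM of the 11 Rab genes past the threshold in each library, on linear axes from 0, with parental libraries as circles and those labelled Axin1+ as triangles. Horizontal marks and bars are the mean and SD of the 4 libraries, with the lower bar of RAB20 cut at 0. The labels overlap in RAB23 and RAB35 and are separate in the other panels.

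Recycling Rabs split. RAB15 (ENSG00000139998, chromosome 14, 64945814 to 64973226), a Rab of early and recycling endosomes, stood at 24.6, 29.5, 34.0 and 33.6 CPM in parental replicates 1 to 4 and at 56.4, 43.5, 60.1 and 59.0 CPM in Axin1+ replicates 1 to 4. All Axin1+ values exceeded all parental ones, with Axin1+ replicate 2 the lowest of its label. RAB15 rose by 0.85 on the log2 scale (SE 0.15, 95% interval 0.51 to 1.18, edgeR adjusted p = 0.0041) and kept its call in all 16 alternative analyses. The median of its neighbours was 0.15.

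RAB35 (ENSG00000111737, chromosome 12, 120095095 to 120117502), which returns receptors such as integrins and cadherins from endosomes to the cell surface, stood at 67.6, 74.9, 69.5 and 89.2 CPM in the parental and at 68.5, 46.2, 51.1 and 50.4 CPM in the Axin1+ replicates 1 to 4. Axin1+ replicate 1 lay within the parental range and the other Axin1+ libraries below it. RAB35 fell by 0.48 on the log2 scale (SE 0.15, 95% interval -0.81 to -0.15, edgeR adjusted p = 0.0479). This call was lost in 10 of 16 alternatives, among them leaving out any of parental replicates 2, 3 and 4 or Axin1+ replicates 2, 3 and 4 (edgeR adjusted p up to 0.141), and stood at -0.61 without Axin1+ replicate 1. An exon of RAB35 overlaps RAB35-AS1 (2.77 CPM) on the opposite strand, and the use of strand in counting is not given in the sources used here.

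The best known recycling Rabs did not pass the threshold. RAB11A, of the slow recycling route, stood at 243.5, 332, 296 and 262 CPM in the parental and 243, 287, 260.3 and 270.5 CPM in the Axin1+ replicates 1 to 4 (log2 fold change -0.10, 95% interval -0.38 to 0.19). RAB4A, of the fast route, had a log2 fold change of -0.09 (95% interval -0.39 to 0.20). RAB14 and RAB11B lay at 0.11 and 0.14. RAB4B stood at 15.04 CPM in parental replicate 1 against 3.65 to 5.61 CPM in the other parental libraries and 7.53 to 13.5 CPM in the Axin1+ libraries. With all libraries its log2 fold change was 0.41 (edgeR adjusted p = 0.493), and without parental replicate 1 it was 1.01 (edgeR adjusted p = 0.0138). Its exons are shared with 2 annotated read-through genes, to which the table assigns no counts.

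Among Rabs of secretory vesicles, RAB8A and RAB8B rose together and RAB26 fell. RAB8A (ENSG00000167461, chromosome 19, 16111629 to 16134234), which delivers vesicles to the plasma membrane and the cilium, stood at 83.6, 102.9, 83.7 and 102.8 CPM in the parental and 123, 123, 116 and 125 CPM in the Axin1+ replicates 1 to 4. RAB8B (ENSG00000166128, chromosome 15, 63189469 to 63267782), its close relative, stood at 3.92, 4.94, 7.13 and 6.08 CPM and at 10.3, 9.41, 8.38 and 13.4 CPM. The labels were separate in both genes, and RAB8A was by far the more abundant per length (17.96 against 1.06 RPKM in the parental libraries). Log2 fold changes were 0.39 for RAB8A (SE 0.12, edgeR adjusted p = 0.0398) and 0.91 for RAB8B (SE 0.23, edgeR adjusted p = 0.0208). The neighbours of RAB8A had a median of 0.30, which leaves 0.09, and those of RAB8B 0.20, which leaves 0.72. RAB8A lost its call with no expression filter and whenever a library was left out other than parental replicate 4 (edgeR adjusted p up to 0.108), and RAB8B lost its call without parental replicate 2 or Axin1+ replicate 4 (up to 0.0735).

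RAB26 (ENSG00000167964, chromosome 16, 2140803 to 2154165), a Rab of regulated secretory granules, stood at 18.9, 18.6, 15.6 and 12.2 CPM in the parental and 9.29, 10.6, 10.99 and 8.28 CPM in the Axin1+ replicates 1 to 4. No Axin1+ value reached the lowest parental one. RAB26 fell by 0.74 on the log2 scale (SE 0.18, 95% interval -1.14 to -0.34, edgeR adjusted p = 0.0183), with neighbours at -0.29. Its call was lost without parental replicate 2 or Axin1+ replicate 4 (edgeR adjusted p up to 0.0643). RAB10 and RAB13, abundant Rabs of surface delivery and tight junctions, had log2 fold changes of -0.13 and 0.14 (edgeR adjusted p = 0.550 and 0.648). RAB32 and RAB37, of lysosome-related and secretory organelles, lay at 0.06 and 0.15, and the signs of RAB13, RAB32 and RAB37 each depended on 1 library.

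RAB27A and RAB27B, which dock secretory vesicles and exosome-bearing compartments at the plasma membrane, varied among the parental libraries. RAB27B stood at 2.58, 11.6, 13.1 and 4.87 CPM in parental replicates 1 to 4 and at 5.201, 3.96, 3.79 and 7.07 CPM in the Axin1+ replicates, while RAB27A stood at 15.2, 7.85, 12.9 and 7.94 CPM and at 15.2, 15.02, 15.4 and 18.5 CPM. Parental replicate 1 was the highest parental library for RAB27A and the lowest for RAB27B, and the labels overlapped in both genes. Neither passed the threshold (log2 fold changes 0.55 and -0.68, edgeR adjusted p = 0.113 and 0.307). Without parental replicate 1 RAB27A passed it (0.75, edgeR adjusted p = 0.0199) and RAB27B did not (-0.96, edgeR adjusted p = 0.0515). Exons of RAB27A overlap those of PIGBOS1 (14 CPM) and PIGB (13 CPM). RAB3A, RAB3B and RAB3D, of regulated exocytosis, had log2 fold changes of 0.12, 0.29 and -0.20 and did not pass, although the labels did not overlap in RAB3B.

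Rabs of the endoplasmic reticulum and Golgi gave 1 call among 13 tested (7.69%, against 19.2% of all genes). Among the 13, 5 had an unadjusted p under 0.05 in the edgeR test, which 33.5% of all genes had. The median absolute log2 fold change of the group was 0.40, against 0.31 for all genes, so the low share of calls says little about it. RAB36 (ENSG00000100228, chromosome 22, 23145326 to 23164350), a Golgi Rab, stood at 3.47, 4.06, 5.43 and 4.29 CPM in the parental and 8.29, 6.03, 7.84 and 8.43 CPM in the Axin1+ replicates 1 to 4. The labels were separate, with Axin1+ replicate 2 closest to the parental range. RAB36 rose by 0.83 on the log2 scale (SE 0.21, 95% interval 0.36 to 1.3, edgeR adjusted p = 0.0208), with neighbours at -0.09. Its call was lost without parental replicate 2 or Axin1+ replicates 3 or 4 (edgeR adjusted p up to 0.0674).

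The main carriers between the endoplasmic reticulum and the Golgi did not pass the threshold. RAB1A stood at 137, 237, 293 and 202 CPM in the parental and 263, 205.5, 231 and 286 CPM in the Axin1+ replicates 1 to 4, and its labels overlapped widely (log2 fold change 0.18, 95% interval -0.28 to 0.64). RAB1B stood at 171, 169, 159 and 204 CPM and at 150.3, 123, 145 and 115 CPM, without overlap (log2 fold change -0.40, edgeR adjusted p = 0.0578), and its neighbours had a median of -0.31. It passed without parental replicate 1 (edgeR adjusted p = 0.0478) and without Axin1+ replicate 1 (edgeR adjusted p = 0.0402). RAB6A, of retrograde Golgi transport, had a log2 fold change of -0.23 (95% interval -0.58 to 0.13). RAB2B and RAB18, a Rab of lipid droplets, had positive values of 0.56 each that did not pass (edgeR adjusted p = 0.0603 and 0.0678), although RAB18 passed without parental replicate 3 (0.71) or Axin1+ replicate 1 (0.66). RAB6D, a low-level copy related to RAB6A whose reads may be shared with it, lay at -1.33 on the log2 scale (SE 0.44, edgeR adjusted p = 0.0569) and passed without parental replicate 1 or without Axin1+ replicate 1 (edgeR adjusted p = 0.0448 and 0.0465).

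In the group of ciliary and other Rabs, RAB23 (ENSG00000112210, chromosome 6, 57186992 to 57222314), a negative regulator of Hedgehog signalling, stood at 4.90, 7.18, 9.71 and 10.5 CPM in the parental and 14.6, 9.58, 14.8 and 18.4 CPM in the Axin1+ replicates 1 to 4. The labels overlapped through Axin1+ replicate 2. RAB23 rose by 0.83 on the log2 scale (SE 0.26, 95% interval 0.26 to 1.41, edgeR adjusted p = 0.0473), with neighbours at 0.34. The call was lost in 7 of 16 alternatives, with total counts only and without any of parental replicates 1, 2 and 3 or Axin1+ replicates 1, 3 and 4 (edgeR adjusted p up to 0.147). An exon of RAB23 overlaps BAG2 (47.9 CPM) on the opposite strand. RAB28, RAB40B and RAB40C lay between -0.24 and 0.31 and did not pass.

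Position on the chromosome was recorded beside each change because the neighbours of several members moved too. Of the 11 called Rab genes, 9 had the sign of their neighbours' median. The same share was not computed over all genes, so nothing is drawn from this count. It includes RAB20 and RAB35, whose neighbours had medians near 0 (0.03 and -0.08). In RAB7A, RAB8A and RAB9A that median was more than 50% of the gene's own log2 fold change. RAB5B and RAB36 rose among neighbours with medians of -0.01 and -0.09. The part of the neighbourhood in these changes was not tested.

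**Figure D4:**
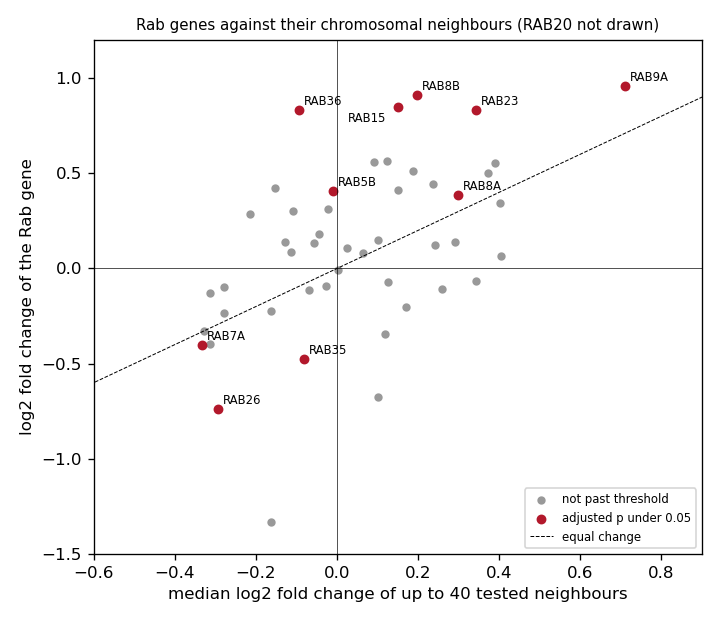
Log2 fold change of each tested Rab gene other than RAB20 against the median log2 fold change of up to 40 tested genes around it, with the dashed line at equal values. Red points passed the threshold. RAB9A lies at the right edge, among neighbours with a median of 0.71, and RAB7A and RAB8A lie close to the line.

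Relatives that share a number were compared through the log2 ratio of their levels in each library, with the two-sided test being an exact permutation of the labels (70 labelings). Of 16 pairs, 2 reached the smallest p that 4 against 4 libraries allow, 0.0286, and 0 passed after adjustment over the 16 (smallest adjusted p = 0.229). With that smallest p, a pair could pass only if most of the 16 reached it, so the 0 says little about single pairs. The log2 RPKM ratio of RAB2A over RAB2B was 2.91, 2.45, 2.35 and 2.75 in parental replicates 1 to 4 and 1.498, 2.19, 2.22 and 1.98 in the Axin1+ replicates, a change of -0.65 without overlap. RAB2A and RAB2B both act at the Golgi, and RAB2A stayed the more abundant in every library. Exons of RAB2B overlap TOX4 (57.2 CPM) on the opposite strand. The other pair was RAB6B over RAB6D, with a change of 1.67. It rests on the low counts of RAB6D and on RAB6B, whose exons overlap the abundant SRPRB (184 CPM). For the RAB5 genes the changes in ratio were small, at 0.10 for RAB5A over RAB5B, 0.17 for RAB5A over RAB5C and 0.07 for RAB5B over RAB5C (exact permutation p = 0.657, 0.486 and 0.629). RAB8A over RAB8B changed by -0.51 and RAB27A over RAB27B by 1.04 (exact permutation p = 0.114 and 0.171), so that unequal change within these pairs was not shown.

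The machinery that loads, switches and reads Rabs was examined through 4 lists. Of 8 genes for prenylation and delivery, 1 rose and 1 fell. Of 30 tested GEFs 1 rose and 5 fell, of 38 tested GAPs 3 rose and 4 fell, and of 48 tested effectors 7 rose and 3 fell. The shares called were 25%, 20%, 18.4% and 20.8%, against 19.2% of all genes, and the median log2 fold changes were 0.28, -0.07, 0.05 and -0.01. The GEF calls were mostly decreases, 5 of the 30 tested, where 8.77% of all genes fell. Each of these 5 calls was lost without parental replicate 2 and likewise without Axin1+ replicate 3, so nothing is drawn from their direction.

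RABIF, a chaperone that holds nucleotide-free Rabs of the secretory branch such as RAB8A and RAB10, stood at 17.5, 15.8, 14.6 and 17.1 CPM in the parental and 31.6, 32.6, 37.9 and 33.6 CPM in the Axin1+ replicates 1 to 4. Its labels were far apart, and RABIF rose by 1.06 on the log2 scale (SE 0.13, edgeR adjusted p = 0.000509) while its neighbours had a median of 0.09. RABGGTB, the catalytic subunit of the enzyme that prenylates Rabs, fell by 0.43 (SE 0.13, edgeR adjusted p = 0.0466), a call lost with total counts only, with no expression filter, and without any library other than parental replicate 4 and Axin1+ replicate 1 (log2 fold change -0.43 to -0.37). The escort genes CHM and CHML and the carrier GDI2 did not pass, with log2 fold changes of 0.09, 0.47 and 0.30. RABAC1, a Rab receptor of the Golgi, had 0.66 (edgeR adjusted p = 0.102) and passed without parental replicate 1 (0.96, edgeR adjusted p = 0.0062).

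Among exchange factors, RGP1, a subunit of the GEF of RAB6A, stood at 23.3, 26.5, 24.7 and 29.2 CPM in the parental and 63.3, 42.2, 48.5 and 50 CPM in the Axin1+ replicates 1 to 4. It rose by 0.98 on the log2 scale (SE 0.15, edgeR adjusted p = 0.0017), among neighbours with a median of 0.93. DENND5B and DENND4A, GEFs of the DENN family, fell by 0.55 (SE 0.13, edgeR adjusted p = 0.0137) and by 0.51 (SE 0.12, edgeR adjusted p = 0.0172). Both lost their call without parental replicate 2 (-0.51 and -0.44) or without Axin1+ replicate 3 (-0.49 and -0.46). The remaining decreases, named after their values were seen, were DENND5A, HPS1 (part of the GEF of RAB32 and RAB38) and RABGEF1. RABGEF1, the GEF of the RAB5 genes, stood at 4.09, 3.52, 3.47 and 4.80 CPM and at 2.48, 2.64, 1.82 and 1.64 CPM. It fell by 0.90 (SE 0.25, edgeR adjusted p = 0.0321), opposite in sign to RAB5A, RAB5B and RAB5C. Its call was lost in 8 of 16 alternatives, among them without any of parental replicates 2, 3 and 4 or Axin1+ replicates 3 and 4 (log2 fold change -0.96 to -0.78). DENND5A (edgeR adjusted p = 0.04996) lost its call in 11 alternatives, among them without any of replicates 2, 3 and 4 of either label. Its log2 fold change ran from -0.64 to -0.38 over all 16. HPS1 lost its call in 10, among them without any library other than parental replicate 4, and ran from -0.57 to -0.36 over all 16.

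Among the GAPs, TBC1D9 rose by 1.1 (SE 0.18, edgeR adjusted p = 0.0021), from 6.76, 7.58, 7.31 and 8.23 CPM to 17.4, 12.3, 15.2 and 19.0 CPM. SGSM2, a GAP of RAB32 and RAB38, fell by 0.64 (SE 0.13, edgeR adjusted p = 0.0083), and TBC1D17 rose by 0.57 (SE 0.13, edgeR adjusted p = 0.0140). The call for TBC1D17 was lost without parental replicate 2 (0.55, edgeR adjusted p = 0.0517) or Axin1+ replicate 3 (0.51, edgeR adjusted p = 0.0505). TBC1D4, known from insulin-driven glucose transporter traffic and named after its values were seen, stood at 50.02, 55.8, 60.1 and 43.9 CPM in the parental and 47.8, 14.9, 17.9 and 20.3 CPM in the Axin1+ replicates 1 to 4. Axin1+ replicate 1 lay within the parental range, as it did for RAB35. The log2 fold change of TBC1D4 was -1.05 (SE 0.32, edgeR adjusted p = 0.0417) and -1.56 without Axin1+ replicate 1, and its call was lost without any of replicates 2, 3 and 4 of either label (-1.13 to -0.87).

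The smallest p-value in the effector list was that of MYO5B, the motor that carries RAB11A and RAB8A vesicles along actin. It stood at 1.07, 1.08, 1.51 and 1.503 CPM in the parental and 5.85, 4.71, 6.65 and 7.14 CPM in the Axin1+ replicates 1 to 4, so that every Axin1+ library was several times above every parental one. MYO5B rose by 2.24 on the log2 scale (SE 0.25, edgeR adjusted p = 0.000295), with neighbours at 0.18. VPS16, a core subunit of the HOPS and CORVET tethers of late and early endosomes, fell by 0.66 (SE 0.13, edgeR adjusted p = 0.0055), from 25.1 to 29.3 CPM down to 15.8 to 17.6 CPM. Its neighbours had a median of -0.29. Other tether subunits, named after their values were seen, did not fall past the threshold. VPS11, VPS18, VPS33A and VPS39 lay at -0.29, 0.15, 0.02 and 0.26, VPS8 and TGFBRAP1 at -0.03 and -0.16, and VPS41 rose (0.40). SYTL4, an effector of RAB27A, rose by 1.18 (SE 0.24, edgeR adjusted p = 0.0079), from 2.05 to 3.47 CPM up to 4.78 to 6.11 CPM. MYO5B, VPS16 and SYTL4 kept their calls in all 16 alternative analyses.

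Other effectors past the threshold, named after their values were seen, were MYO5A, PLEKHM1, APPL2, VPS41 and USO1, which rose, and MICALL1 and SYTL5, which fell. PLEKHM1 and VPS41 act with RAB7A in fusion of late endosomes with lysosomes, and their log2 fold changes were 0.55 and 0.40. APPL2 binds RAB5 genes' products on early endosomes and had 0.63, and USO1, a tether that binds RAB1A, had 0.51. Each of these 7 calls depended on at least 2 single libraries: MYO5A lost its call only without parental replicate 2 (0.58) or Axin1+ replicate 4 (0.55), PLEKHM1 without 5 of the libraries, SYTL5 without 5, and APPL2, MICALL1, USO1 and VPS41 without 6 each (edgeR adjusted p up to 0.135 over the alternatives of USO1). SYTL5, another RAB27A effector, stood at 8.81, 12.5, 15.9 and 18.1 CPM in the parental and 8.04, 1.24, 1.28 and 1.48 CPM in the Axin1+ replicates 1 to 4 (log2 fold change -2.15, SE 0.57, edgeR adjusted p = 0.0237). The labels were separate, but Axin1+ replicate 1 lay close to the parental range and far above the other Axin1+ libraries. Without that library the log2 fold change of SYTL5 was -3.35. Its call was lost without parental replicates 2 or 4 or Axin1+ replicates 2, 3 or 4 (-2.2 to -1.9).

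**Figure D5:**
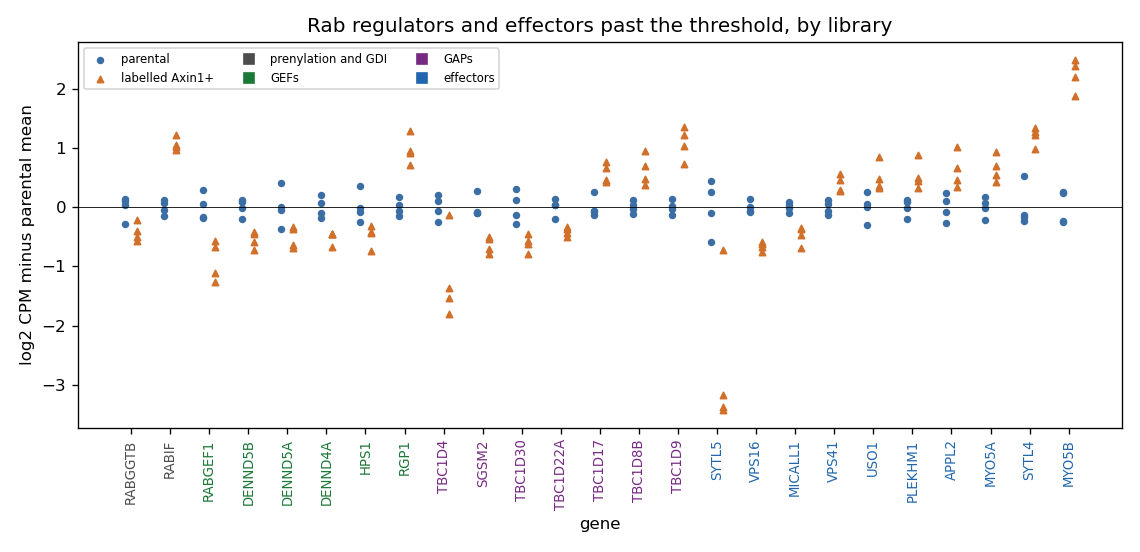
Regulators and effectors of Rabs past the threshold, as log2 CPM of each library minus the parental mean of that gene, with parental libraries as circles and those labelled Axin1+ as triangles. Name colours give the list. MYO5B lies far above its parental values, and in TBC1D4 and SYTL5 the triangle of Axin1+ replicate 1 lies apart from the other 3.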

How the data were processed

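The 8 Alexander1 mRNA libraries were sequenced, and each title gave a library its group and its replicate number. The authors deposited raw counts per gene, without normalization. The submitters' processing notes name bcl2fastq, fastp 0.23.1, STAR 2.7.4 and GRCh38. The counting program, annotation and strand setting are not given in the sources used here. Of 58206 identifiers, 57943 were found in GENCODE 29 on GRCh38 (positions, merged exon lengths, overlaps) and 57495 in a symbol table.

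The deposited table was fitted with edgeR 4.0.16 (R 4.3.3): filterByExpr (minimum count 10, minimum total 15), TMM scaling and the two-sided quasi-likelihood test over the whole table, Benjamini-Hochberg adjusted at 0.05. Each standard error is the size of the log2 fold change divided by the root of the F statistic. Log2 ratios used a prior count of 2. Neighbours are the 20 tested genes on each side. Intervals are at 95%. Alternatives were other scalings and filters, limma-voom 3.58.1, DESeq2 1.42.0, the replicate number as a block, thinning all libraries to 11232951 counts, a threshold of 0.01 and leaving out each library. The fit was tested on simulated data.

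Named genes are every Rab gene past the threshold, a set of well-known Rabs, the relatives compared, the 3 smallest p-values of each list of regulators and AXIN1. Other genes are named with that stated, and all tested Rab genes and called regulators went through the alternatives. The members and lists were chosen with earlier results of these data known.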

Additional observations from a re-analysis of the deposited data

Results flagged for a closer look

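Within groups of 4 libraries, a library was singled out where its gap to the nearest other, on the log2 CPM scale, exceeded the 95% limit of Dixon's test. This was examined in 98 groups (49 Rab genes under 2 labels), and chance alone marks about 1 in 20, so 3 marked values are no more than chance gives. RAB4A stood at 37.7 CPM in Axin1+ replicate 2, below the 44.1 to 45.1 CPM of the other Axin1+ libraries. RAB22A, which recycles cargo from early endosomes, stood at 43.8 CPM in parental replicate 4, below 72.5 to 77.4 CPM in the other parental libraries. RAB27A stood at 18.5 CPM in Axin1+ replicate 4, above 15.02 to 15.4 CPM in the others.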

How the results depend on the processing

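The main analysis called 11 Rab genes, 8 higher and 3 lower, and 2738 of all genes. With the DESeq2 Wald test 19 Rab genes (13 higher, 6 lower) and 3504 of all genes were called, and at an adjusted p under 0.01 there were 3, all higher, 0 lower, with 964 of all genes. With total counts only, and likewise with no expression filter, 1 Rab gene was lower. Total counts moved the median of all genes from 0.003 to 0.09 and that of the Rab genes from 0.14 to 0.22. With 1 library left out, the calls ranged from 3 to 14 Rab genes, from 3 to 9 higher and from 0 to 6 lower, and from 1394 to 3523 of all genes. The replicate block gave 7 Rab genes, 1 of them lower, and 2033 of all genes. RAB5B, RAB7A, RAB8A and RAB35 lost their calls under it (adjusted p = 0.0695, 0.0793, 0.0767 and 0.0909). Deviations of same-numbered libraries correlated between -0.06 and 0.23, and 1 of 4 parental libraries correlated best with its own number, so the numbers were not taken as pairs. Values near 0 changed sign. With total counts only RAB2A turned to 0.013, RAB24 to 0.020 and RAB39A to 0.070, and RAB28 turned to 0.0093 after thinning. RAB39A also turned to 0.015 with no expression filter, 0.038 with limma-voom and 0.012 with the replicate block. With 1 library left out the log2 fold changes ran as follows. RAB2A ran from -0.14 to 0.016, RAB13 from -0.022 to 0.31, RAB22A from -0.071 to 0.16, RAB24 from -0.16 to 0.052, RAB32 from -0.089 to 0.18, RAB37 from -0.044 to 0.29 and RAB39A from -0.21 to 0.17. The change in RAB5A over RAB5B ran from -0.072 to 0.19 and that in RAB5B over RAB5C from -0.014 to 0.12. The cause of these moves was not tested. Over 92 single genes and ratios and 1430 alternative values, 1195 kept direction and side of the threshold, 184 were no longer past it, 30 newly passed it and 21 changed sign. Depth limits what can be said of the 14 untested members, and fold changes at a few counts, such as that of RAB20, are imprecise.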

Other observations

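Viewed through the 49 tested Rab genes alone, the libraries fell apart by label on the first principal component, which carried 54.8% of the variance, with parental libraries between -3.02 and -1.21 and Axin1+ libraries between 1.5 and 2.63. On that component Axin1+ replicate 1, at 1.5, was the Axin1+ library closest to the parental ones, the next being at 2.07. The second component (22.7%) set parental replicate 1 apart, at 3.02, from the other libraries at 1.37 or less. Over all tested genes, the first component (55.9%) placed Axin1+ replicate 1 at 22.2. The other Axin1+ libraries lay there between 48.7 and 56.8 and the parental ones between -46.7 and -42.6.

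The number of times a library held the highest of the 8 values was also uneven. Axin1+ replicate 4 was highest in 13 of the 49 Rab genes, parental replicate 3 in 11 and parental replicate 2 in 1. Parental replicate 3 was highest for RAB1A, RAB6A, RAB7A and RAB10, whereas Axin1+ replicate 4 was highest for RAB5A, RAB5B, RAB8A, RAB8B and RAB18.

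The summed level of all Rab genes was alike under both labels, from 3071 to 3520 CPM over the parental libraries and from 3257 to 3452 CPM over the Axin1+ libraries. The share of late endosome, lysosome and autophagy Rabs in the summed Rab RPKM was 22.3% to 25.5% in the parental and 22.8% to 23.8% in the Axin1+ libraries, so that the opposite movements of RAB7A and RAB9A left it in the same range.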
